A study of Mus musculus with 4 samples.

Results

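The genes described here are 10 that make or sense prostaglandins and leukotrienes in tumor-associated macrophages (TAMs), of the 16739 genes that any library listed above 0. They are the cyclooxygenases Ptgs1 and Ptgs2, the prostanoid synthases Ptges, Hpgds and Tbxas1, the prostaglandin E2 receptors Ptger2 and Ptger4, and the leukotriene genes Alox5, Alox5ap and Lta4h. They were picked by symbol and matched by Entrez identifier, with the difference between the groups, above all that of Ptgs2, already known. Their fold changes and adjusted p-values are therefore given as a description of these libraries, and counts over the 10 carry no test.

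TAMs (CD45+CD11b+F4/80+) were sorted from subcutaneous tumors of B16-F10, a mouse melanoma line, 16 days after injection into C57BL/6 mice that were 6 to 8 weeks old. The libraries were 2 of TAMs from WT mice and 2 of TAMs from mice with the genotype label Trim24-/-. Their titles number the TAM samples and do not say whether cells of several mice were pooled. In mice with that label a floxed Trim24 was removed by Cre under the lysozyme M promoter (LysM-Cre), which is active in myeloid cells other than macrophages too. WT mice were littermates according to the study's methods, which do not say whether they carried the floxed allele or Cre, and the comparison asks what changed in TAMs when macrophages lacked Trim24.

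Prostaglandins and leukotrienes are lipid mediators made from arachidonic acid, which phospholipases cut from membranes. The cyclooxygenases turn it into prostaglandin H2, from which each terminal synthase makes one product, such as prostaglandin E2, prostaglandin D2 or thromboxane A2. The 5-lipoxygenase branch turns the same acid into leukotriene A4 and then into leukotriene B4, a strong attractant of neutrophils, or into cysteinyl leukotrienes. In tumors, prostaglandin E2 is known for dampening the activity of T cells and dendritic cells.

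Trim24 transcript did not part the groups. Its normalised count (CPM, expected counts scaled by TMM to one common library total) was 5.82 and 2.12 in WT replicates and 3.43 and 0.411 in Trim24-/- labelled replicates 1 and 2 (exact two-sided permutation test, p = 0.667; the smallest p that 2 against 2 allow is 0.333). Counts are per gene and do not resolve the exons that Cre removes, so the group is called by its label, and values are given in the order replicate 1, replicate 2 throughout. Xist, the X-linked RNA of the silenced X chromosome, was at 0.38 to 0.61 FPKM in WT libraries and 14.9 to 27.0 FPKM in the Trim24-/- labelled libraries, and 4 Y-linked genes summed to 42.7 to 50.5 and 0.09 to 0.40 FPKM, so that sex and genotype cannot be told apart in any difference below. The study's methods describe mice matched for sex, which these transcripts go against. The 10 macrophage markers summed to 9150 to 12230 FPKM, mostly through Lyz2 (3606 to 6531 FPKM) and C1qa (2827 to 3446 FPKM). Of the same list, Csf1r was at 337 to 378 FPKM, Adgre1 at 326 to 374 FPKM and Itgam at 111 to 236 FPKM. The 11 neutrophil markers, of which 9 had a value, summed to 111 and 122 FPKM in WT libraries and to 188 and 469 FPKM in the Trim24-/- labelled libraries, mostly through S100a8 and S100a9, which monocytes also express. Of the other markers on this list, Retnlg was at 3.19 and 0 FPKM in WT and 3.12 and 18.1 FPKM in Trim24-/- labelled TAMs, Csf3r at 23.3 and 26.3 and at 41.0 and 37.9 FPKM, Cxcr2 at 21.3 and 29.3 and at 13.3 and 23.6 FPKM, and Ly6g at 0 in both WT libraries and at 2.11 and 0.95 FPKM. Camp, Ngp and Ltf stayed at or under 0.53 FPKM, and Mpo and Elane had no value in any table. Melanoma cell markers summed to 262 and 247 FPKM in WT and to 158 and 216 FPKM in Trim24-/- labelled TAMs, endothelial markers to 5.73 and 4.35 and to 11.9 and 7.14 FPKM, and T and NK cell markers to 40.9 and 29.4 and to 73.6 and 23.4 FPKM. Platelet markers summed to 1193 and 1631 and to 497 and 1299 FPKM, nearly all of it Pf4, and dendritic cell markers to 13.9 to 22.8 FPKM. Markers of mast cells, fibroblasts, B cells and eosinophils summed to at most 4.72 FPKM each. The part of these markers in the differences below was not tested.

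The 250 bases before the start of each cyclooxygenase gene are shown because both genes rose and the values below turn on this pair. The letters are from RefSeq, build GRCm38.p6, plus strand, 5′ to 3′. Capitals mark every match, on either strand, to the letters of 8 motifs. They are the TATA box, searched as TATAAA, then the GC box, searched as GGGCGG, the E-box, searched as CACGTG, the cAMP response half-site, searched as TGACG, the C/EBP motif, searched as TTNCNNAA with N for any base, and the consensus motifs of AP-1, NF-kB and STAT6.
Ptgs2, chr1:150099781-150100030: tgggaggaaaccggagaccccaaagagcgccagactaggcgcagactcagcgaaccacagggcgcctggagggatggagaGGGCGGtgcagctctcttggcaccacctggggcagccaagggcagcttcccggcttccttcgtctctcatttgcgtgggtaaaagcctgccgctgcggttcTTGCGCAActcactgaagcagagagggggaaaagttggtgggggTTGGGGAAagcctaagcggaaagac
Ptgs1, chr2:36230176-36230425: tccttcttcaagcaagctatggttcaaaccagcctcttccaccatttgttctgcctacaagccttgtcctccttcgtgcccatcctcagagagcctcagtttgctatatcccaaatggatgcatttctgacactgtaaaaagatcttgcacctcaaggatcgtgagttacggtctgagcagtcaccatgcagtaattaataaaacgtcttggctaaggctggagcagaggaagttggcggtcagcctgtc
The Ptgs2 window holds the GC box letters once and the C/EBP letters at 2 places, of which TTGCGCAA reads the same on both strands. The Ptgs1 window, whose start lies inside the gene interval given for it below, holds none of the 8 motifs. Over 32851 promoters of the same length in the table, 32.7% hold the GC box letters and 36.8% the C/EBP letters, so matches of this kind are common. The STAT6 letters, in 5.85% of all promoters, were in 2 of the 9 genes with an entry, Ptges and Tbxas1. The windows of these 2 genes, like that of Ptgs1, lie inside the gene intervals given for them below. The NF-kB letters, in 4.11% of all promoters, were in none of these windows. Only these 250 bases were searched, so letters missing from a window may lie after the start or further before it. A match is a run of letters and not a bound site, and these libraries hold no measurement of binding.

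Both cyclooxygenase genes were higher in the Trim24-/- labelled libraries. They were the members called among the 9 tested, with 0 called lower, against 0.292% of all 11302 genes tested called higher and 0.0796% called lower in edgeR's quasi-likelihood test, where a call needed more than a 1.5-fold change with FDR under 0.05. Without adjustment, 4 members had p under 0.05, all higher, against 6.58% of all genes, and 0 members were lower against 5.62%. DESeq2 also called these 2 members higher and 0 lower, against 1.17% and 0.212% of all genes. Of the 9 members, 8 had a log2 fold change above 0, against 49.4% of all genes, 5 had both Trim24-/- labelled libraries above both WT libraries, against 21.5%, and 0 had them below, against 23%. These shares describe genes that were picked with the result known.

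Ptgs2 (Entrez gene 19225, chromosome 1 of GRCm38.p6 from 150100031 to 150108234, plus strand, protein-coding, 10 exons) encodes cyclooxygenase-2, the isoform that inflammatory signals induce. It measured 17.6 and 11.7 CPM in WT and 61.8 and 105 CPM in Trim24-/- labelled TAMs. Both of the latter lay well above both WT libraries, and they also differed between themselves by 1.71-fold. The group means were 14.6 ± 4.17 and 83.6 ± 30.9 CPM (SD, n = 2 each), and the fitted difference was 5.71-fold (log2 fold change 2.51, standard error [SE] 0.31, with the Benjamini-Hochberg adjusted p of edgeR given as FDR throughout; edgeR FDR 0.0112).

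Ptgs1 (Entrez gene 19224, chromosome 2 from 36216742 to 36258593, plus strand, protein-coding, 11 exons) encodes cyclooxygenase-1, usually described as the constitutive isoform. Its CPM was 6.26 and 9.17 in WT and 29.0 and 35.75 in Trim24-/- labelled TAMs. The groups did not overlap, with the higher replicate 1.47-fold above the lower in WT and 1.23-fold in the other group, against medians over all genes tested of 1.17 and 1.24. The means of 7.71 ± 2.06 and 32.4 ± 4.80 CPM (SD, n = 2 each) gave a fitted difference of 4.19-fold (log2 fold change 2.07, SE 0.29, edgeR FDR 0.0188). Both isoforms thus rose, and whether they rose by different amounts was not tested.

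Per transcript length, the 2 isoforms together were at 6.21 and 6.16 FPKM in WT libraries and at 22.6 and 33.5 FPKM in the Trim24-/- labelled libraries. The FPKM ratio of Ptgs2 to Ptgs1 was 1.81 and 0.817 in WT replicates and 1.37 and 1.90 in the other group. These ratios overlapped between the groups, so the summed level differed while the balance of the isoforms did not part the libraries.
In limma on log2(FPKM + 1) values, which does not use the counts, neither isoform passed the adjusted threshold. The log2 fold change was 2.05 (limma FDR 0.0782) for Ptgs2 and 1.62 (limma FDR 0.0907) for Ptgs1. No member was called in that fit, against 0.126% of all genes called higher. At an unadjusted limma p under 0.05, 4 members were higher and 1 lower. The share of all genes at that looser threshold is not given here, so these counts have no background. Without WT replicate 1, Ptgs1 also lost its call (1.83, edgeR FDR 0.0553), while Ptgs2 kept its call without each library in turn, between 2.08 and 2.86. The share of all genes called higher without 1 library was 0.444% without WT replicate 1, 0.18% without WT replicate 2, and 2.18% and 3.74% without replicates 1 and 2 of the other group, so calls made without a library of that group stand against a wider background. Summed neutrophil markers, given above, were higher in the same libraries, and their part in either difference was not tested. In bulk RNA of sorted cells, fewer cells of a type and less RNA per cell cannot be told apart.

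**Figure D1:**
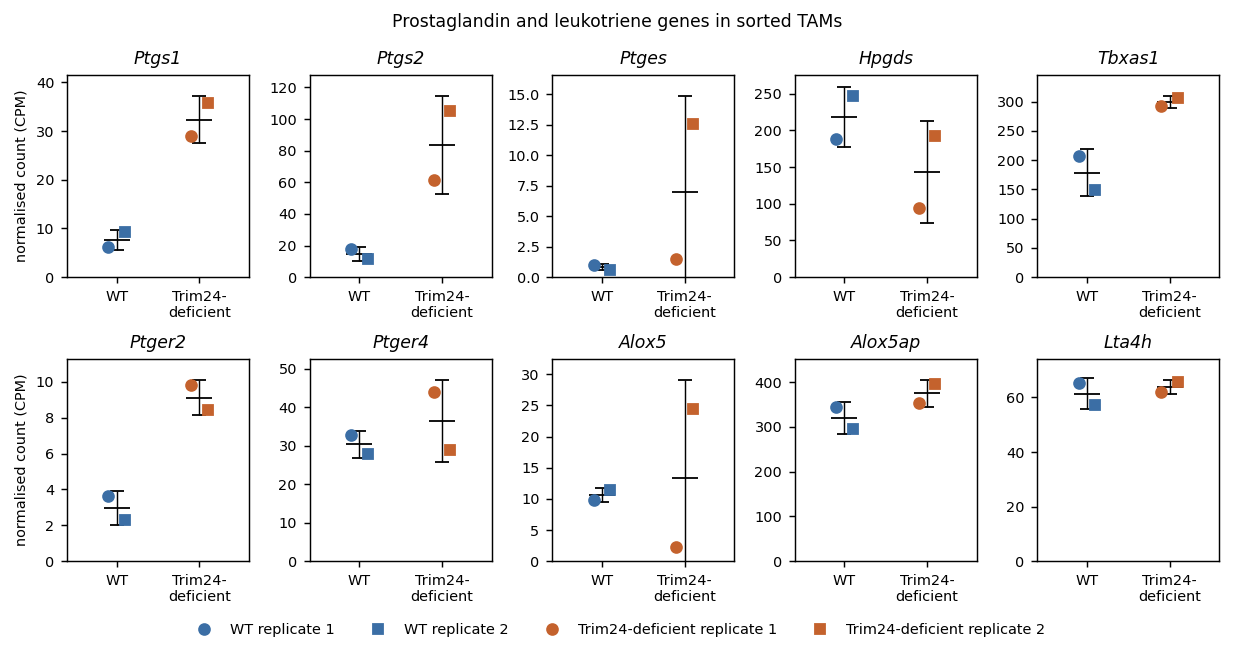
Normalised count (CPM, linear axis from 0) of each of the 10 genes in the 4 TAM libraries, with the group mean and SD (n = 2) in black, cut at 0 where the SD exceeds the mean. Ptgs1 and Ptgs2 separate the groups widely, whereas Alox5 and Ptges are spread between the Trim24-/- labelled libraries.

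Tbxas1 (Entrez gene 21391, chromosome 6 from 38864159 to 39084590, plus strand, 13 exons) encodes thromboxane A synthase. It measured 207 and 149.8 CPM in WT and 293 and 307 CPM in Trim24-/- labelled TAMs. Every library of the latter group was above every WT library. The fitted difference was 1.68-fold (log2 fold change 0.75, SE 0.22), and it did not pass the threshold (edgeR FDR 0.213). Leaving out Trim24-/- labelled replicate 1 brought it past, at a log2 fold change of 0.79 (edgeR FDR 0.0391).

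Hpgds (Entrez gene 54486, chromosome 6 from 65117293 to 65144981, minus strand, 6 exons) encodes the hematopoietic prostaglandin D synthase. Its CPM was 189 and 246.5 in WT and 93.7 and 192 in Trim24-/- labelled TAMs. It was the one tested member with a fitted change below 0 (log2 fold change -0.61, SE 0.31, edgeR FDR 0.460), and the groups overlapped, since Trim24-/- labelled replicate 2 exceeded WT replicate 1. The low value lay in replicate 1. Without replicate 2 the change was -1.21 and passed (edgeR FDR 0.00106), as a lower call of 1.8% of all genes in that fit. The counts of Hpgds were not whole numbers, as RSEM gives where it divides reads among genes, so its level is less certain.

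Ptges (Entrez gene 64292, chromosome 2 from 30889471 to 30931020, minus strand, 3 exons) encodes the inducible prostaglandin E synthase that works downstream of cyclooxygenase-2. It had 5 and 3 expected counts in the WT libraries and 7 and 61 in the Trim24-/- labelled libraries, which was too few for the low-count filter. Nearly all of its difference was in 1 library, replicate 2, at 12.5 CPM against 1.49 CPM in replicate 1 and 1.01 and 0.625 CPM in the WT libraries. In the fit without the filter the log2 fold change was 3.07 (SE 0.89, edgeR FDR 0.227), and without Trim24-/- labelled replicate 2 it was 0.85 (SE 0.997, edgeR FDR 0.785). Without Trim24-/- labelled replicate 1 it was 3.91 (edgeR FDR 0.117), and 3.90 with FDR 0.000435 where the filter, which Ptges passes in those 3 libraries, was kept. Replicate 2 was also the library with the highest Ptgs2 and the highest sum of neutrophil markers, of 469 FPKM. Of that list, S100a8, S100a9 and Retnlg were each highest there. Ly6g (2.11 and 0.95 FPKM) and Csf3r (41.0 and 37.9 FPKM) were instead higher in Trim24-/- labelled replicate 1 than in replicate 2. Cxcr2 was highest in WT replicate 2 (29.3 FPKM, against 23.6 FPKM in Trim24-/- labelled replicate 2). The part of these markers in the Ptges values was not tested.

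The synthases can be set side by side per length. Shares are of the summed FPKM of 10 genes listed as prostanoid synthases (Ptges, Hpgds, Tbxas1, Ptges2, Ptges3, Ptgds, Ptgis, Cbr1, Prxl2b and Akr1b3). The list is wider than the enzymes that act on prostaglandin H2. Tbxas1 took 17.6% and 13.7% in the WT libraries and 28.2% and 23.98% in the Trim24-/- labelled libraries. Hpgds took 9.64% and 13.5% in the former and 5.41% and 9.01% in the latter. Neither pair of ranges overlapped, but the same held for the shares of Ptges, Cbr1, Ptges3 and Akr1b3, so such a gap was common here. The Hpgds gap was narrow, from 9.01% to 9.64%. Its TMM-scaled CPM overlapped between the groups, at 192 in Trim24-/- labelled replicate 2 and 189 in WT replicate 1. Ptges never exceeded 0.532% of the sum. The constitutively expressed Ptges3, a co-chaperone that also has prostaglandin E synthase activity, took 16.5% to 22.7%, and Akr1b3, an aldose reductase with prostaglandin F synthase activity, took 21.6% to 31.3%.

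Ptger2 (Entrez gene 19217, chromosome 14 from 44988111 to 45003820, plus strand, 2 exons) encodes EP2, a prostaglandin E2 receptor that raises cyclic AMP. It measured 3.635 and 2.29 CPM in WT and 9.80 and 8.425 CPM in Trim24-/- labelled TAMs. The groups did not overlap, and the means were 2.96 ± 0.95 and 9.11 ± 0.97 CPM (SD, n = 2 each). The fitted difference of 3.05-fold (log2 fold change 1.61, SE 0.43) did not pass the threshold (edgeR FDR 0.193) and rested on 11 to 46 expected counts per library.

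Ptger4 (Entrez gene 19219, chromosome 15 from 5233399 to 5244187, minus strand, 3 exons) encodes EP4, the second receptor that couples to cyclic AMP. It measured 32.9 and 27.9 CPM in WT and 43.9 and 28.8 CPM in Trim24-/- labelled TAMs, with overlapping groups (log2 fold change 0.25, SE 0.25, edgeR FDR 0.724). The fitted change turned to -0.08 without Trim24-/- labelled replicate 1. Per length, EP4 transcript was the more abundant of the pair in all 4 libraries, with FPKM ratios of Ptger4 to Ptger2 of 10.4 and 13.8 in WT and of 5.14 and 3.87 in the other group. The ratio was lower in both Trim24-/- labelled libraries.

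None of the 3 leukotriene synthesis genes was called, and none had an unadjusted p under 0.05; DESeq2 called none of them either. Alox5ap (Entrez gene 11690, chromosome 5 from 149265004 to 149288153, plus strand, 5 exons) encodes FLAP, the membrane protein that hands arachidonic acid to 5-lipoxygenase. Its CPM was 345 and 295 in WT and 354 and 395.5 in Trim24-/- labelled TAMs, a log2 fold change of 0.23 (SE 0.20, edgeR FDR 0.686). The groups did not overlap, but the gap between the nearest libraries was small against the spread within each group. Lta4h (Entrez gene 16993, chromosome 10 from 93453396 to 93484896, plus strand, 19 exons), whose product makes leukotriene B4, measured 65.4 and 57.3 CPM in WT and 62.0 and 65.55 CPM in Trim24-/- labelled TAMs. Its log2 fold change of 0.06 (SE 0.19, edgeR FDR 0.930) was within the spread between replicates and changed sign with library totals in place of TMM scaling (-0.09).

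Alox5 (Entrez gene 11689, chromosome 6 from 116410071 to 116461178, minus strand, 14 exons) encodes 5-lipoxygenase, the enzyme that begins leukotriene synthesis. It measured 9.89 and 11.5 CPM in WT and 2.34 and 24.45 CPM in Trim24-/- labelled TAMs. The latter values lay on either side of both WT libraries and 10.4-fold apart. The fold between these 2 libraries was at least as large for 0.363% of the 11302 genes tested, and its median over all genes tested was 1.24. The group difference therefore had no stable direction. Its log2 fold change was 0.33 (SE 0.73, edgeR FDR 0.892), 1.20 without replicate 1 (FDR 0.0300) and -2.17 without replicate 2 (FDR 0.0165).

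The 2 Trim24-/- labelled libraries differed in the same direction in several other genes. Ltc4s, which makes leukotriene C4, measured 4.24 and 7.08 CPM in WT and 0.852 and 7.40 CPM in Trim24-/- labelled TAMs. Mgst3, a microsomal glutathione transferase with leukotriene C4 synthase activity, was at 15.4 and 21.7 CPM and at 9.37 and 21.6 CPM in the same order. Thus Alox5, Hpgds, Ltc4s and Mgst3 all had their lowest value in Trim24-/- labelled replicate 1. Pf4, listed as a platelet marker and also expressed by macrophages, had its lowest value there as well, at 492 FPKM against 1182 to 1611 FPKM in the other 3 libraries. Ppbp, of the same list, followed it at 10.5 and 20.4 FPKM in WT and 4.69 and 16.9 FPKM in Trim24-/- labelled TAMs, while Gp9 and Gp1ba stayed at or under 0.30 FPKM and Itga2b and Gp1bb had no value. The 5 mast cell markers with a value stayed at or under 0.58 FPKM each. The part of these cells in the values of Alox5 and Hpgds was not tested. Other pathway genes went the other way between the Trim24-/- labelled libraries. Plaat3 was at 83.9 and 37.8 CPM in their replicates 1 and 2, and Fpr2 at 42.7 and 20.4 CPM. Over all genes tested, 8.82% were more than 2-fold apart between these libraries. Ltc4s, Mgst3, Plaat3 and Fpr2 were set beside the members after their values were seen.

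**Figure D2:**
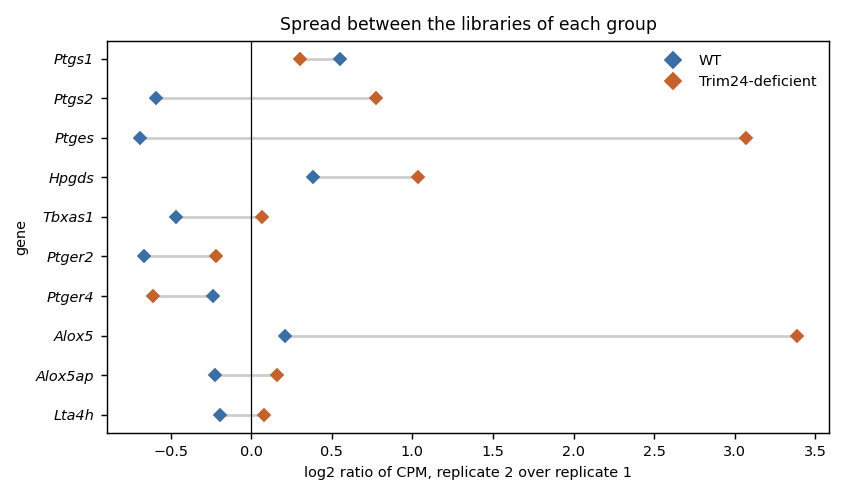
Log2 ratio of CPM in replicate 2 over replicate 1 for each of the 10 genes (rows), in WT libraries (blue) and Trim24-/- labelled libraries (orange); 0 means equal values. Alox5 and Ptges stand far to the right in the latter group, at 10.4-fold and 8.41-fold, and Hpgds was 2.05-fold apart.

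Levels of different genes can be compared in FPKM, which is scaled to length. Over the 4 libraries, Alox5ap was the most abundant at 340 ± 23.5 FPKM (SD, n = 4), above 98.5% of all genes with a value. Tbxas1 followed at 118 ± 30.1 FPKM, Hpgds at 54.7 ± 21.6 FPKM and Lta4h at 30.3 ± 1.70 FPKM. Next came Ptgs2 at 10.4 ± 8.94 FPKM, Ptger4 at 9.96 ± 1.96 FPKM, Ptgs1 at 6.68 ± 4.58 FPKM, Alox5 at 4.18 ± 3.01 FPKM, Ptger2 at 1.54 ± 0.861 FPKM and Ptges at 1.01 ± 1.46 FPKM. Of neighbors in this order, Alox5ap and Tbxas1, Tbxas1 and Hpgds, and Lta4h and Ptgs2 had ranges over the 4 libraries that did not overlap, and all other neighbors overlapped. The second of these gaps was narrow, from 80.5 FPKM for the lowest Tbxas1 value to 79.4 FPKM for the highest Hpgds value.

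The order of the upper 4 was the same in the means of both groups. By WT means Ptger4 (9.61 FPKM) and Alox5 (3.94 FPKM) stood above Ptgs2 (3.39 FPKM) and Ptgs1 (2.80 FPKM), and by the means of the other group Ptgs2 (17.5 FPKM) and Ptgs1 (10.6 FPKM) stood above both Ptger4 (10.3 FPKM) and Alox5 (4.43 FPKM). These means of 2 do not hold in every library, since Ptgs2 (4 FPKM) exceeded Alox5 (3.57 FPKM) in WT replicate 1 and Ptger4 (12.6 FPKM) exceeded Ptgs1 (9.52 FPKM) in Trim24-/- labelled replicate 1. FLAP transcript exceeded that of its partner 5-lipoxygenase in every library, by 97.7-fold and 72.4-fold in WT and by 427-fold and 45.5-fold in the other group. TAMs of both groups held abundant transcript for FLAP and thromboxane synthase beside little for 5-lipoxygenase and the inducible prostaglandin E synthase.

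**Figure D3:**
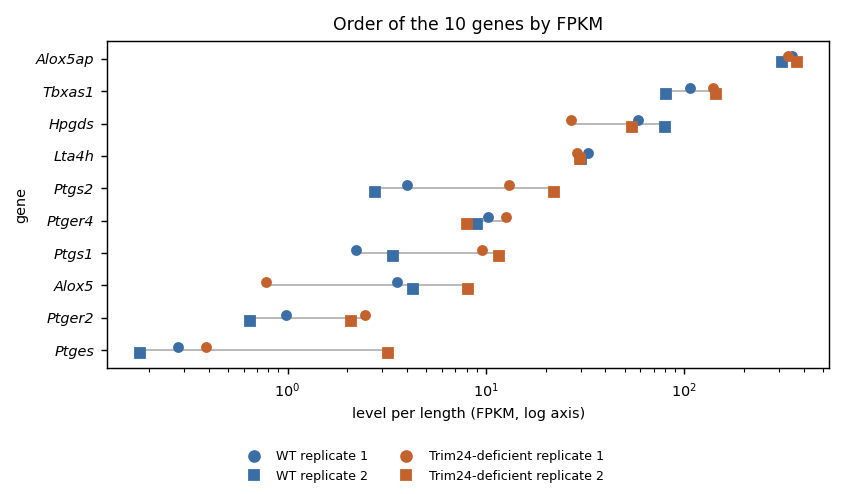
Level per length (FPKM, log axis) of the 10 genes, ordered by their mean over the 4 libraries (blue WT, orange Trim24-/- labelled, circles replicate 1, squares replicate 2); the grey line spans the lowest to the highest library. Alox5ap lies above 300 FPKM in every library. For Ptgs1, Ptgs2, Ptger2, Tbxas1 and Ptges both orange symbols stand to the right of both blue ones. For Hpgds and Lta4h both stand to the left, by a narrow gap for Lta4h (29.74 against 29.98 FPKM). In TMM-scaled CPM the groups overlapped for both Hpgds and Lta4h.

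The wider pathway was followed in 54 further genes, of which 51 had a value and 34 were tested. Called higher were 2, Ltb4r1 and Pla2g7, and 0 were called lower, with 6 higher and 2 lower at an unadjusted p under 0.05. Over all genes tested, 0.292% were called higher and 0.0796% lower, and 6.58% and 5.62% had an unadjusted p under 0.05. DESeq2 called 4 higher and 0 lower, adding Fpr2 and Cyp4f18, against 1.17% and 0.212% of all genes. The median log2 fold change was 0.20 over the 34 genes and 0.33 over the 9 members tested, against -0.01 over all genes tested. As in the members, this list was put together with earlier results known.

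Ltb4r1, the high-affinity leukotriene B4 receptor BLT1, measured 16.6 and 13.1 CPM in WT and 58.4 and 57.5 CPM in Trim24-/- labelled TAMs. The libraries of each group lay close together and the groups far apart, by 3.90-fold (log2 fold change 1.96, SE 0.22, edgeR FDR 0.00644). All 4 tested genes of the leukotriene and lipoxin receptors were higher in both Trim24-/- labelled libraries than in both WT libraries, against 21.5% of all genes tested. Cysltr1, the main cysteinyl leukotriene receptor, had a log2 fold change of 0.37 (edgeR FDR 0.443). Fpr2, a receptor of formyl peptides and lipoxin A4 that is named after its values were seen, had one of 1.48 (edgeR FDR 0.153). The receptor for leukotriene B4 was thus called and the genes that make it were not, and the difference between these changes was not tested.

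Among 10 tested genes listed for arachidonate release, 1 was called higher. Pla2g7 measured 108 and 131 CPM in WT and 302 and 361 CPM in Trim24-/- labelled TAMs, 2.77-fold higher (log2 fold change 1.47, SE 0.21, edgeR FDR 0.0195). The call was lost without WT replicate 1 (1.36, edgeR FDR 0.115), without WT replicate 2 (1.61, edgeR FDR 0.121) and in limma on log2(FPKM + 1) (1.31, FDR 0.0782). Its product is a secreted enzyme that breaks down platelet-activating factor and oxidized phospholipids and is not a main source of free arachidonate. Pla2g4a, the cytosolic phospholipase A2 that is, was at 69.7 and 65.6 CPM and at 107 and 105 CPM, a log2 fold change of 0.65 (SE 0.18) that did not pass (edgeR FDR 0.200). It is named here after its values were seen. Pla2g15, a lysosomal phospholipase and with Pla2g7 the most abundant of this role per length, had a log2 fold change of 0.21 (edgeR FDR 0.703).

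None of the other roles held a called gene in edgeR's quasi-likelihood test. Of the 6 other prostanoid synthases tested, 0 had an unadjusted p under 0.05, and their log2 fold changes ran from -0.34 to 0.39. The 4 genes of prostaglandin transport and breakdown, with Ptgr1 and Ptgr2 the most abundant, ran from -0.83 to 0.35 with 0 at an unadjusted p under 0.05. The 3 other prostanoid receptors tested, Ptger1 and Ptgdr2 the most abundant of them, ran from 0.01 to 0.28, also with 0. DESeq2 called none of these 3 roles. Of 6 genes that make or break down cysteinyl leukotrienes or leukotriene B4, 2 had an unadjusted p under 0.05 and neither passed the adjusted threshold. Cyp4f18, which inactivates leukotriene B4, measured 129 and 113 CPM in WT and 238 and 319.5 CPM in Trim24-/- labelled TAMs (log2 fold change 1.20, SE 0.22, edgeR FDR 0.0625). Dpep2, a dipeptidase that acts on leukotriene D4, had a log2 fold change of 0.59 (edgeR FDR 0.370). The 1 tested gene among the other lipoxygenases, Alox8, measured 11.3 and 15.45 CPM in WT and 6.94 and 5.77 CPM in Trim24-/- labelled TAMs (log2 fold change -1.06, SE 0.34, edgeR FDR 0.255). Alox15, named after its values were seen and an enzyme known from alternatively activated macrophages, had at most 3 expected counts in any library, too few for a comparison.

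**Figure D4:**
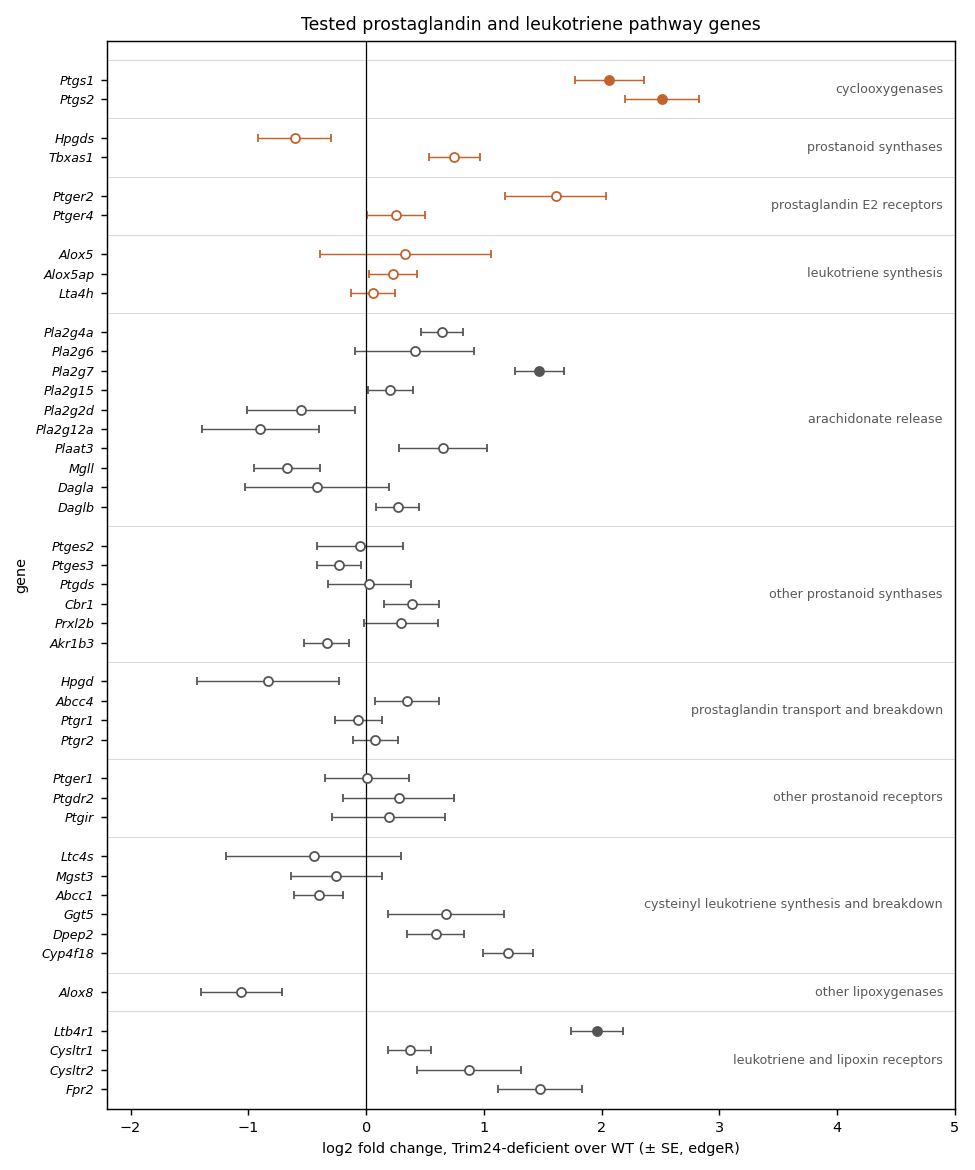
Log2 fold change of the Trim24-/- labelled libraries over WT, with its SE from edgeR's quasi-likelihood test, for the 9 tested members (orange) and the 34 other tested pathway genes (grey), grouped by role. Filled symbols were called (over 1.5-fold, FDR under 0.05); they are Ptgs1, Ptgs2, Pla2g7 and Ltb4r1.

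Among 9202 other genes whose log2 CPM averaged 3 or more, the 5 whose pattern over the 4 libraries was nearest to that of Ptgs2 were Fpr1, Tarm1, Il1b, H2-Ab1 and Ms4a8a. Likeness was the root mean square difference of centred log2 CPM over the 4 libraries, and it ran from 0.271 for Fpr1 to 0.365 for Ms4a8a. Fpr1, a formyl peptide receptor of phagocytes, measured 14.3 and 13.3 CPM in WT and 70.6 and 79.4 CPM in Trim24-/- labelled TAMs. Il1b, which encodes interleukin-1β, was at 28.7 and 33.75 CPM and at 106 and 189 CPM. H2-Ab1, a chain of MHC class II, was at 1048 and 718 CPM and at 4400 and 3945 CPM. A list found by likeness shares the group difference of Ptgs2 by construction, so its differences are not further evidence.

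**Figure D5:**
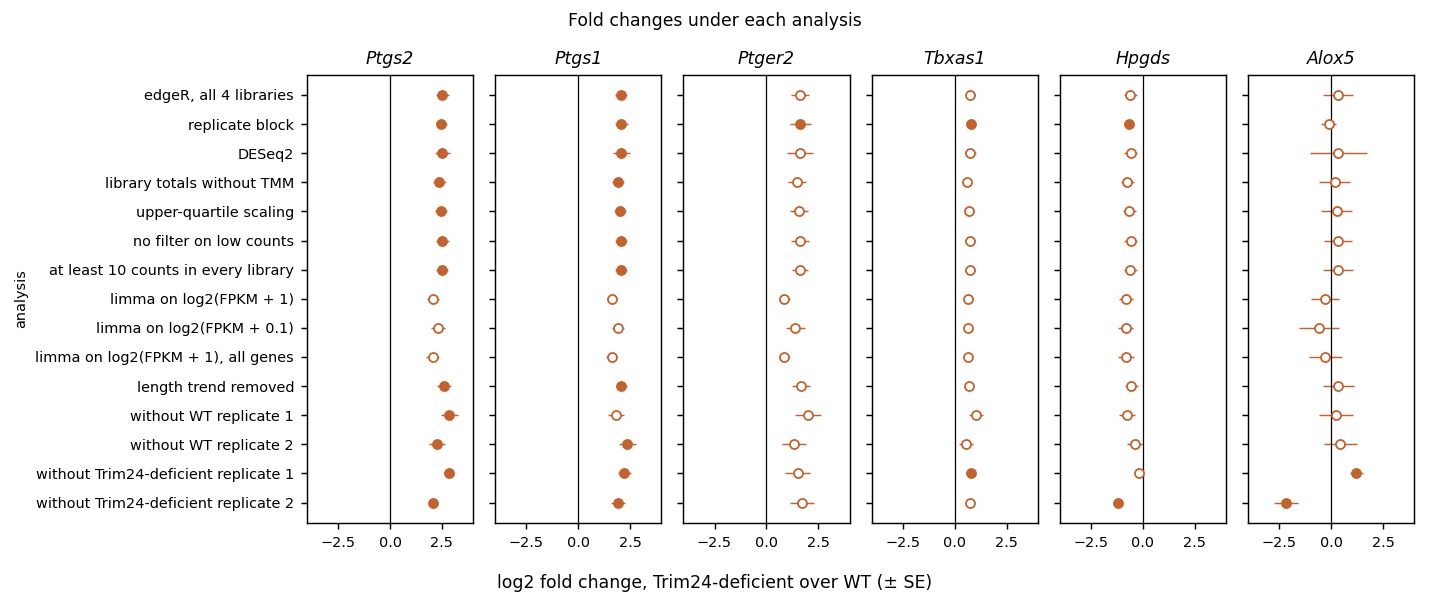
Log2 fold change with its SE for 6 of the genes (panels) under each analysis (rows), from edgeR on all 4 libraries to fits without 1 library; filled symbols were called (over 1.5-fold, FDR under 0.05). Ptgs2 and Ptgs1 stay right of 0 in every row and are open in the limma fits, Ptgs1 is also open without WT replicate 1, and Alox5 changes side with the library that is left out.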

How the data were processed

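RNA of sorted TAMs was sequenced in 4 libraries, 2 WT and 2 labelled Trim24-deficient, grouped by their GEO titles. Reads were aligned by the authors with Bowtie to GRCm38/mm10, and RSEM gave gene levels (versions not given in the sources used here). The deposited expected count of a gene is not normalized. The deposited FPKM is scaled to transcript length and library total; genes at 0 are left out of a table and were set to 0. The deposited transcript length served for a check of length bias and for a check of the members' order of levels by CPM per length.

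Of 16739 genes with a value, 16698 matched a symbol by Entrez identifier. Expected counts were rounded. Low genes were removed with filterByExpr of edgeR 4.0.16 (R 4.3.3), which left 11302, and the label was tested with the quasi-likelihood test after TMM scaling. FDR is the Benjamini-Hochberg adjusted p over all genes tested, and a call needed more than a 1.5-fold change with FDR under 0.05, after the study's methods. Normalized counts (CPM) are expected counts set to one common library total after TMM scaling. Ptges fell below the filter, and its values are from the fit without it. Library totals of 4476122 to 5172407 put 3 counts at 0.606 to 0.639 CPM, by counting error only. The scripts were tested on simulated data.

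The 10 genes, the 54 other pathway genes and the marker lists were chosen with earlier results of these data known. Named beyond the 10 are called pathway genes, in each pathway role the 2 of highest mean FPKM, the markers, and the 5 genes most like Ptgs2. Genes named outside this rule were chosen after their values were seen, and the text says so. Other analyses used DESeq2 1.42.0, limma 3.58.1 on log2 FPKM values with a pseudocount of 1 or 0.1, a replicate block, library totals, upper-quartile scaling, other filters, a length correction, and leaving out each library. Motifs were searched in the RefSeq promoter table of GRCm38.p6.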

Additional observations from a re-analysis of the deposited data

How the results depend on the processing

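For the 10 genes, 104 of 130 values under the alternatives kept the direction and the side of the threshold. Many of these belong to genes that were not called in either fit. The 7 values that lost a call were all of Ptgs1 or Ptgs2, the only called members. With limma in place of edgeR, the log2 fold change of Ptgs2 was 2.05 on log2(FPKM + 1) (adjusted p = 0.0782), 2.31 on log2(FPKM + 0.1) and 2.05 without an FPKM filter, and that of Ptgs1 was 1.62, 1.90 and 1.62, none of them past the threshold, so members called higher were 0 in each; other pathway genes called higher were 1, 1 and 0, with Pla2g7 lost in each. All genes called higher were 14, 11 and 0 in the same order, and called lower 0 without the FPKM filter. The cause was not tested.

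The titles number the TAM samples 1 and 2 in each group without saying that a number pairs them. The deviations of same-numbered libraries correlated at 0.165 across genes. With the replicate block, 4 members were called higher (Ptgs1, Ptgs2, Ptger2 at 1.63 and Tbxas1 at 0.77) and 1 lower (Hpgds at -0.68), Alox5 turned to -0.13, 5 other pathway genes were called higher, and 425 genes (3.76%) were called higher and 209 (1.85%) lower. That fit leaves 1 residual degree of freedom and takes its spread wholly from all genes.

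DESeq2 called 132 genes higher, 24 lower and 4 other pathway genes higher. Without the low-count filter 52 genes were called higher, and with at least 10 counts in every library 4 were called lower. Library totals shifted the median of all genes to -0.15 and Lta4h to -0.0917, which was -0.000897 with upper-quartile scaling and -0.10 in each limma fit (-0.0968, -0.0997 and -0.0968). Alox5 was -0.29 on log2(FPKM + 1), also without the filter, and -0.59 on log2(FPKM + 0.1).

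Leaving out each library in turn, members called higher ranged from 1 to 5 and lower from 0 to 2, other pathway genes called higher from 1 to 6, and all genes called higher from 21 to 440 and lower from 4 to 212. A lone library was then assumed to vary like the other group. Log2 fold changes ranged from 1.83 to 2.37 for Ptgs1, from 0.85 to 3.91 for Ptges without the low-count filter (chosen after seeing the data; 2.77 to 3.90 with the filter, which it passes in 3 of the 4 cases), from -1.21 to -0.17 for Hpgds, from 0.54 to 1.02 for Tbxas1, from -0.0758 to 0.53 for Ptger4, from -2.17 to 1.20 for Alox5 and from -0.0372 to 0.17 for Lta4h. At 3 to 61 expected counts, differences in Ptges are at the limit of this depth.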
